A study of Homo sapiens with 6 samples.

Results

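The 49 genes described here encode the proteins that license replication origins, build and drive the replication fork, supply its nucleotides and start S phase. They were taken by symbol from a list, and all 49 were found among the 26372 genes of the deposited table and passed the filter of a mean of at least 1 FPKM (mapped fragments scaled to transcript length and library depth, so a level per length), as did 13434 genes in all. The samples were 6 poly(A) RNA libraries of SH-SY5Y, a human neuroblastoma cell line that keeps dividing in culture. For 3 libraries (titled shT2) the cells had received, by lentivirus, a short hairpin RNA against TDP-43, an RNA-binding protein encoded by TARDBP. Stable knockdown cells were selected and kept in puromycin (whether the control cells were too is not stated). For the other 3 libraries (titled shNC3) the cells carried a control hairpin in the same vector, which expresses the hairpin from a U6 promoter. All 6 libraries come from this 1 line. The labels give neither the number of hairpins or clones in an arm nor whether its 3 libraries were separate cultures. The p-values therefore reflect no more than the variation among these libraries, which may be technical.

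Replication is prepared in G1 phase, when the origin recognition complex (ORC) with CDC6 and CDT1 loads rings of the MCM2-7 helicase onto origins. In S phase the DBF4-dependent kinase and cyclin E kinase switch these rings on by adding CDC45 and the GINS complex, and polymerases, the PCNA clamp, the RPA proteins and a supply of deoxynucleotides then carry the fork. Most of these genes are transcribed in late G1 and S phase under E2F transcription factors, and in neuroblastoma they mark dividing cells.

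TARDBP, the targeted gene, stood at 21.9, 20.7 and 21.0 FPKM with the TDP-43 hairpin against 50.3, 50.3 and 47.7 FPKM with the control hairpin. The knockdown level was 42.8% of the control mean, and the groups lay apart (log2 fold change -1.19, limma adjusted p = 6.69e-08). TARDBP exons share 1760 bases with another gene model on the same strand that has no values here. TARDBP also has 2 pseudogenes named after it, so its level is uncertain to that extent. Judged by the size of 1 fragment among low values, the knockdown libraries had 52.6% to 94.7% of the depth of the deepest library and the controls 84.6% to 100%, with knockdown library 2 the shallowest. That library held the lowest knockdown value for 26 of the 49 genes and the highest for 15. The line's own markers were present in both arms, with 14 noradrenergic genes summing to 1146 to 1273 FPKM with the TDP-43 hairpin and 598 to 612 FPKM without it, 10 of 13 tested called higher and DBH and SLC18A1 called lower (-0.28 and -0.95), although TH, the enzyme that starts catecholamine synthesis, was listed at 0 in every library. The 15 markers of the flat mesenchymal state that SH-SY5Y cultures can hold summed to 383 to 387 FPKM against 2363 to 2412 FPKM in control libraries, 14 of 15 were called lower, and CAV1 and ANXA1 were listed at 0 in every knockdown library. Of 10 Schwann and glial markers 4 were tested, 3 were higher and 1 was lower, with sums of 52.8 to 53.7 and 45.4 to 48.1 FPKM. These markers moved with the 2 groups that every comparison below sets side by side, and their part in the results was not tested.

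The replication genes moved in both directions, and none was called at a change of 2-fold or more. Calls were made with limma at a Benjamini-Hochberg adjusted p below 0.05 on log2(FPKM + 1). Every fold change below is on that scale, which understates the change of low genes. Of the 49 genes 25 (51.0%) were called, against 66.3% of all genes tested. The knockdown was higher for 10 (20.4%, against 30.5% of all genes) and lower for 15 (30.6%, against 35.9%). Their median log2 fold change was -0.027 and that of all genes was -0.020. The median absolute log2 change was 0.20 for the replication genes and 0.31 for all genes. Changes past the threshold and of at least 2-fold made up 11.3% of all genes and 0 of these 49. The groups did not overlap for 30 of the 49, against 70.8% of all genes. The share called is below the background. The shares of all genes, 30.5% higher, 35.9% lower and 70.8% with groups apart, are the background for the counts by role and list below.

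The split of the 25 calls depended on the scaling of the libraries, as it did for the whole table. With quantile normalization, which moved the median of all genes by 0.11, 19 of the 49 were called higher and 9 lower. The 9 added rises were ORC2, ORC5, MCM4, MCM5, CDC7, PRIM1, TIMELESS, TYMS and CDC25A, and the 6 falls lost were GINS2, GINS3, POLA2, FEN1, RFC2 and RFC3. With columns rescaled to equal sums, a sum that a few very short RNAs dominate, the shift over all genes was -0.80, and 0 were called higher and 48 lower. Set against the median of all genes under each scaling, 19 of the 49 lay above it and 24 below it in the deposited values and in all 4 rescalings. Directions below are on the deposited scale. The 9 falls of ORC6, CDC6, CDC45, GINS1, GINS4, DBF4, RRM1, RRM2 and CCNE2 were called lower under all 18 alternatives tried. The 8 rises of ORC4, MCM2, MCM3, MCM6, MCM7, POLA1, E2F1 and E2F2 were called higher under every alternative in which they were tested except equal sums, where all 8 were below 0 and above the median of all genes.

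**Figure D1:**
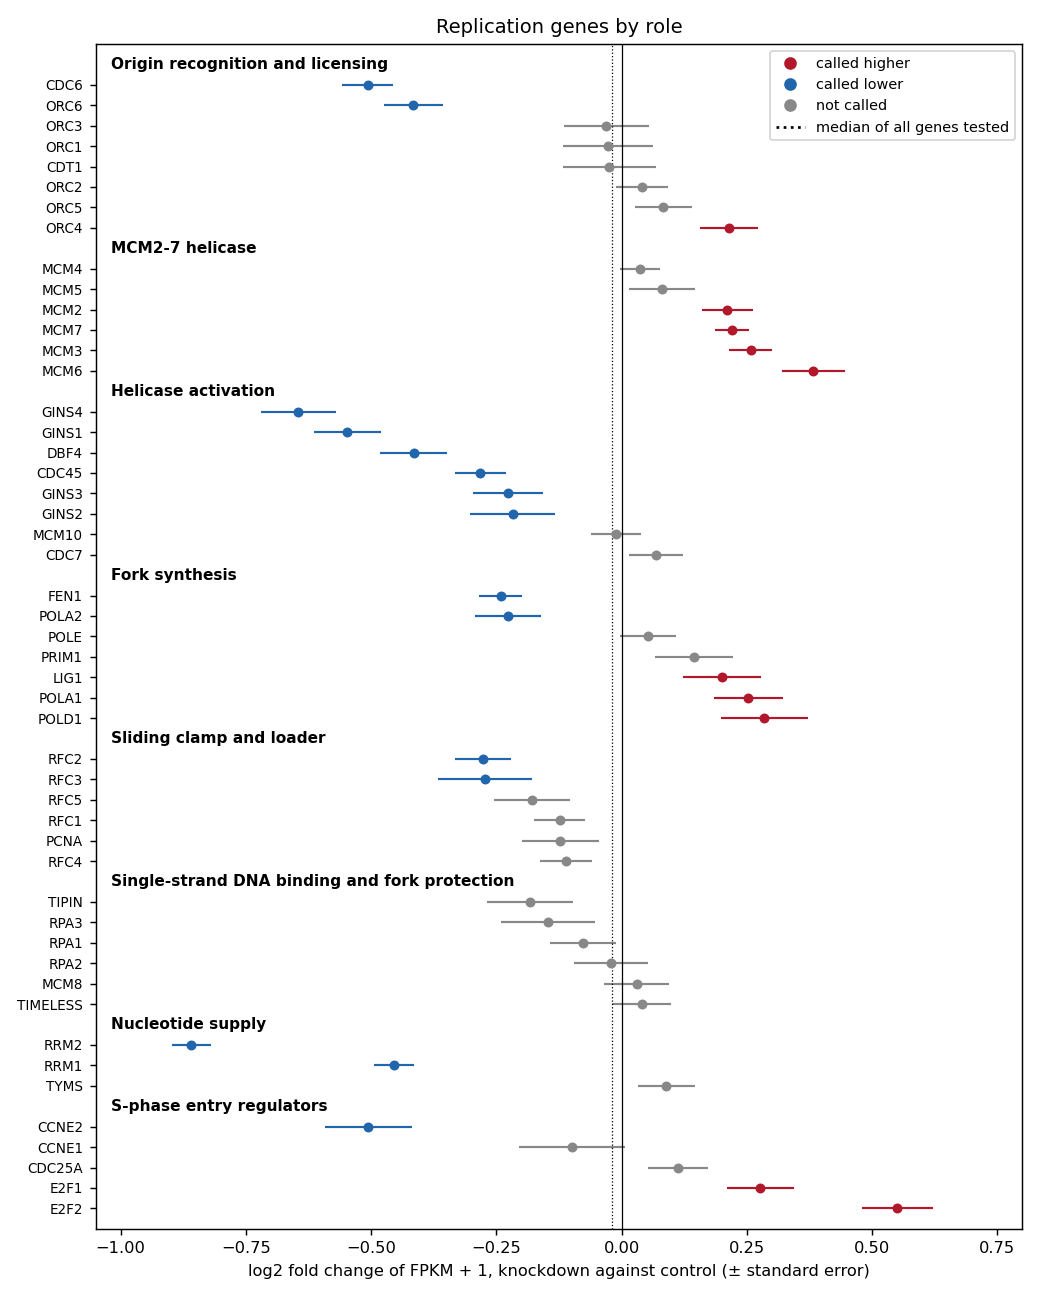
Log2 fold change of FPKM + 1 (x axis, knockdown against control, with the standard error of the fit) for the 49 replication genes grouped by role, coloured by call. The dotted line is the median of all 13434 genes tested (-0.020). On the deposited scale all 6 MCM2-7 genes lie above 0 (all 6 are below it with equal sums), 4 of them called, the 4 GINS genes lie below 0, and RRM2 has the largest fall (-0.86).

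The MCM2-7 genes encode the 6 subunits of the ring that becomes the replicative helicase. Of these 4 of 6 rose (66.7%, against 30.5% of all genes), with 0 lower and a median of 0.22. Quantile normalization gave the ring a median of 0.44 and equal sums -0.66. MCM6 (chromosome 2, 135839626 to 135876426, minus strand, GRCh38) stood at 27.1, 25.4 and 28.9 FPKM with the TDP-43 hairpin against 21.0, 21.6 and 19.2 FPKM with the control hairpin. Its groups did not overlap, and it had the largest rise of the ring (log2 fold change 0.38, standard error 0.0633, adjusted p = 7.14e-04). MCM3 stood at 49.9, 46.3 and 47.5 FPKM with the TDP-43 hairpin against 40.7, 39.2 and 39.8 FPKM with the control hairpin, again with the groups apart (0.26, adjusted p = 8.36e-04). MCM7, the most abundant of the 49 genes, stood at 96.2, 97.7 and 96.3 FPKM with the TDP-43 hairpin against 83.4, 82.2 and 83.3 FPKM with the control hairpin. The 3 knockdown values of MCM7 lay within 1.49 FPKM of each other and above every control (0.22, adjusted p = 4.69e-04), and its exons overlap those of AP4M1 on the other strand by 392 bases. MCM2 stood at 24.1, 25.2 and 23.8 FPKM with the TDP-43 hairpin against 21.6, 19.9 and 21.3 FPKM with the control hairpin, with the groups apart (0.21, adjusted p = 0.00598). MCM5, at 21.2 ± 1.97 against 19.9 ± 0.227 FPKM (SD, n = 3 each), and MCM4, at 31.2 ± 0.415 against 30.3 ± 0.0780 FPKM, did not pass (adjusted p = 0.301 and 0.428), but both were called higher with quantile normalization (0.23 and 0.25). The 3 knockdown values of MCM4 lay above all 3 controls, by as little as 0.34 FPKM, while MCM5 was high in knockdown library 2 alone.

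E2F factors are the best known regulators of these promoters, so the promoters of the replication genes were searched for 3 E2F motifs, TTTCGCGC, TTTGGCGC and TTTCCCGC, on both strands. RefSeq promoters (GRCh38.p14, 250 bases before to 50 after the start) were found for 43 of the 49 genes, 53 windows in all. No promoter was found for MCM4, MCM5, GINS4, CCNE2, RPA2 and RPA3, so these genes were not searched. At least 1 motif was found in 23 of the 53 windows (43.4%). The share was 2.74% of 35116 windows of all genes and 4.00% of 14538 windows of the genes tested. By motif the shares were 9.43% against 0.515% for TTTCGCGC, 18.9% against 0.652% for TTTGGCGC and 20.8% against 1.63% for TTTCCCGC. Over windows of the genes tested the 3 shares were 0.770%, 1.01% and 2.33%. Counted by gene, a motif was found for 8 of 10 genes that rose, 6 of 13 that fell and 9 of 20 not called. The share was 3.30% of all genes with a promoter and 5.49% of tested genes with a promoter. Counted by window a motif was found in 8 of 14, 6 of 16 and 9 of 23, since some genes have several start sites. TTTCGCGC was found for 4 of the 10, 1 of the 13 and 0 of the 20, TTTGGCGC for 4, 2 and 4, and TTTCCCGC for 3, 3 and 5. These counts are small and were not tested. The 6-letter motif TTTGAA (the CHR element, known from promoters of mitotic genes) was in 3.77% of the replication windows and 15.2% of all windows. It was in 10.8% of windows of the genes tested and 61.9% of 42 windows of mitotic genes. CCAAT was in 58.5%, 34.6%, 34.9% and 76.2% of the same windows. A match is a description of these letters and not of binding.

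The upstream part of the MCM6 promoter, 250 bases ending before the start (chr2:135876444-135876693, minus strand), is shown because it holds 2 copies of a 12-base run in which TTTGGCGC overlaps TTTCGCGC read on the other strand. The capitals mark the motifs.
MCM6: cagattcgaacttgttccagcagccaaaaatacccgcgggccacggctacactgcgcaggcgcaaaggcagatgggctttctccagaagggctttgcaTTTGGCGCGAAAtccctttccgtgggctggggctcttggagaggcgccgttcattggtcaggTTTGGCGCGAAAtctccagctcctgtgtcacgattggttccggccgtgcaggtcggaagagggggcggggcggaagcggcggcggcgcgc

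Short stretches around single sites are shown next for genes that rose and then for genes that fell, to let the sites be compared, with the motif in capitals and the position of its first base counted from the RefSeq start site. The first 6 rose and the last 6 fell. Not every site is shown, and the TTTCCCGC sites of genes that rose are left out. MCM7 has 3 start sites, and E2F motifs were found only in the window of the start used here.
MCM2, chr3:127598404-127598433, plus strand, from position 3: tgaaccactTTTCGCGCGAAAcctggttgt
MCM3, chr6:52284730-52284755, minus strand, from position -4: ttcggaagtTTTCGCGCcggggtgga
MCM7, chr7:100101390-100101415, minus strand, from position -9: ggggcgacgTTTCGCGCcaatttcgg
POLA1, chrX:24693772-24693797, plus strand, from position -137: catcacaggGCGCCAAAcgcgcgtcc
E2F1, chr20:33686389-33686414, minus strand, from position -20: caaaaaggaTTTGGCGCgtaaaagtg
E2F2, chr1:23531259-23531284, minus strand, from position -42: ggcacgacgTTTGGCGCtaaaaaaaa
CDC6, chr17:40287877-40287902, plus strand, from position 8: ccattcggaTTTGGCGCgagcgcggc
GINS1, chr20:25407669-25407694, plus strand, from position 6: ctttgttcgGCGCCAAAgcgcggagc
GINS2, chr16:85688969-85688994, minus strand, from position -31: ctcgccgtgGCGGGAAAacggcggcc
GINS3, chr16:58392457-58392482, plus strand, from position -5: tccccgggcGCGGGAAAcgagtttca
POLA2, chr11:65261900-65261925, plus strand, from position -53: ggctcccggTTTCGCGCatgcgtgca
RFC3, chr13:33818085-33818110, plus strand, from position -55: ttggagctcGCGGGAAAacttgtctc
Of the 5 genes with TTTCGCGC, MCM2, MCM3, MCM6 and MCM7 rose and POLA2 fell. TTTGGCGC, forward or reversed, stands in MCM6, POLA1, E2F1 and E2F2, which rose, in CDC6 and GINS1, which fell, and in 4 genes that were not called. TTTCCCGC, forward or reversed, stands in LIG1, MCM3 (from -174) and MCM7 (from -187), which rose, at sites not shown here. It also stands in GINS2, GINS3 and RFC3, which fell, and in 5 genes that were not called.

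Among the licensing genes, which recognise origins and load the ring, 2 of 8 fell and 1 rose (median -0.026, which was 0.068 with quantile normalization). These shares, 25% and 12.5%, compare with 35.9% and 30.5% of all genes. CDC6, the loader ATPase that joins ORC in G1 phase, stood at 12.4, 11.5 and 12.2 FPKM with the TDP-43 hairpin against 17.2, 17.8 and 17.5 FPKM with the control hairpin. Every knockdown value was below every control (log2 fold change -0.51, standard error 0.0515, adjusted p = 3.44e-05), and the knockdown mean was 68.7% of the control mean. ORC6 (chromosome 16, 46689643 to 46698394), the smallest and most loosely bound ORC subunit, stood at 11.9, 13.4 and 12.4 FPKM with the TDP-43 hairpin against 17.8, 16.8 and 16.7 FPKM with the control hairpin, with the groups apart (-0.42, adjusted p = 2.64e-04). ORC4, an ATPase-fold subunit of the core complex, stood at 23.4, 24.6 and 25.3 FPKM with the TDP-43 hairpin against 20.9, 22.3 and 19.7 FPKM with the control hairpin and rose (0.21, adjusted p = 0.0103). The labels and processing notes do not say whether strand was used in counting. The ORC4 exons overlap those of ACVR2A and MBD5 on the other strand by 430 and 157 bases, and both of these genes were called higher too (0.46 and 0.50). CDT1, which brings the ring to ORC, stood at 8.20 ± 1.09 against 8.33 ± 0.618 FPKM and did not pass (adjusted p = 0.828). ORC1, ORC2, ORC3 and ORC5 had log2 fold changes of -0.027, 0.041, -0.03 and 0.083, with adjusted p from 0.225 to 0.802. ORC2 and ORC5 were called higher with quantile normalization (0.16 and 0.20).

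Of the genes that switch the loaded ring on, 6 of 8 fell (75%, against 35.9% of all genes) and 0 rose, with a median of -0.25. With quantile normalization 4 were called lower and 1 higher, with a median of -0.17. GINS4, one of the 4 subunits of the GINS complex that joins MCM2-7 and CDC45 in the active helicase, stood at 4.57, 4.41 and 5.20 FPKM with the TDP-43 hairpin against 7.96, 8.36 and 7.51 FPKM with the control hairpin. It fell by 0.64 (standard error 0.0749, adjusted p = 8.08e-05), to 59.5% of the control mean. GINS1 stood at 9.47, 8.83 and 10.2 FPKM with the TDP-43 hairpin against 13.5, 14.6 and 14.9 FPKM with the control hairpin and fell by 0.55 (adjusted p = 1.08e-04). CDC45, the third part of the active helicase, stood at 10.5, 10.6 and 10.9 FPKM with the TDP-43 hairpin against 12.8, 13.4 and 13.4 FPKM with the control hairpin and fell by 0.28 (adjusted p = 0.00120). In all 3 genes the groups lay apart, with at least 1.90 FPKM between them.

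DBF4 (chromosome 7, 87876216 to 87909541), the regulatory subunit that activates the CDC7 kinase, stood at 12.6, 10.6 and 12.0 FPKM with the TDP-43 hairpin against 15.5, 16.1 and 16.2 FPKM with the control hairpin and fell by 0.42 (adjusted p = 6.23e-04). CDC7 itself stood at 10.8 ± 0.281 against 10.3 ± 0.316 FPKM and did not pass (adjusted p = 0.284), but was called higher with quantile normalization (0.17, adjusted p = 0.0160). DBF4 exons overlap those of SLC25A40 on the other strand by 142 bases, and SLC25A40 was called lower as well (-0.48). DBF4 has 1 pseudogene named after it. GINS3, at 6.26 ± 0.483 against 7.48 ± 0.268 FPKM, fell by 0.23 (adjusted p = 0.0179) and lost its call without control library 1 (adjusted p = 0.074). GINS2, at 17.0 ± 2.15 against 19.8 ± 0.634 FPKM, fell by 0.22 (adjusted p = 0.0493), a call that was lost when any 1 control library was left out (adjusted p = 0.0846 to 0.138) and with a replicate block (adjusted p = 0.0621). It was at -0.087 (adjusted p = 0.347) with quantile normalization and at -0.11 without knockdown library 2. MCM10, which acts with the active helicase, stood at 15.0 ± 0.567 against 15.1 ± 0.301 FPKM (adjusted p = 0.856).

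Ratios within a library do not move when its column is rescaled by 1 factor. All ratios given here were formed after the values had been seen and are descriptions, with no test. Summed GINS1-4 FPKM over summed MCM2-7 FPKM was 0.155, 0.135 and 0.163 in the knockdown libraries and 0.224, 0.239 and 0.231 in the controls. CDC45 over summed MCM2-7 was 0.0421, 0.0428 and 0.0441 against 0.0591, 0.0629 and 0.0627. CDC6 over summed ORC1-6 was 0.133 ± 0.00383 against 0.194 ± 0.00582 and DBF4 over CDC7 was 1.08 ± 0.0848 against 1.55 ± 0.0783 (SD, n = 3 each). For these 4 ratios each knockdown library was below each control.

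**Figure D2:**
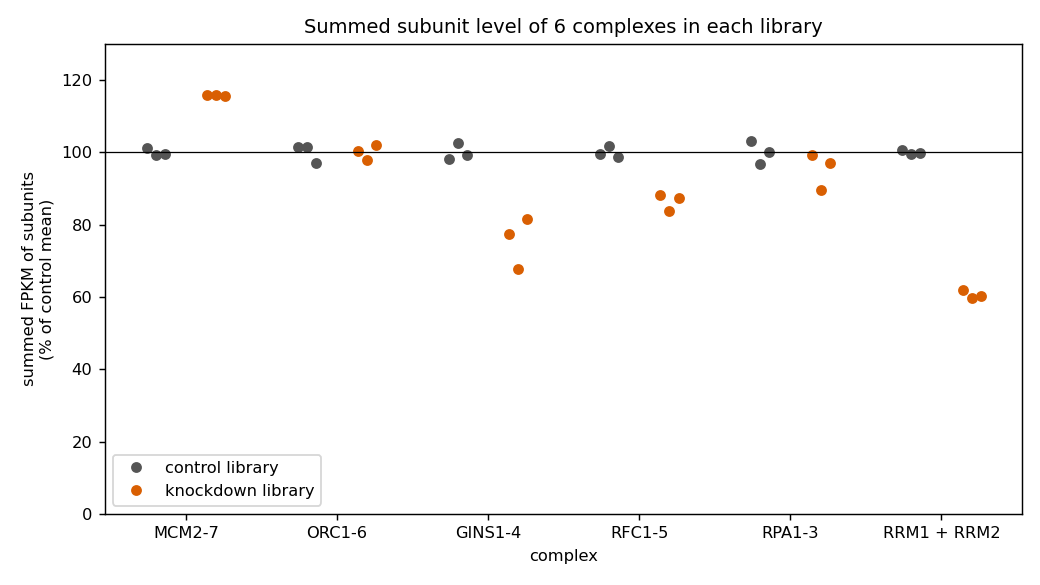
Summed FPKM of the subunits of 6 complexes in each library (y axis, percent of the control mean of that complex). Points are libraries. The knockdown libraries lie above the controls for MCM2-7 (115.8% of the control mean), level with them for ORC1-6 (100.1%), and below them for GINS1-4 (75.6%), RFC1-5 (86.4%) and RRM1 with RRM2 (60.7%).

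In MCM2-7, ORC, GINS and ribonucleotide reductase some subunits held a different share of the complex in the 2 groups. Within MCM2-7, MCM7 made up 38.9% ± 0.282 of the summed FPKM after knockdown and 38.7% ± 0.290 in the control, and MCM4 12.5% ± 0.191 against 14.1% ± 0.175. The shares of MCM4 and of MCM6 (10.9% ± 0.709 against 9.59% ± 0.571) lay apart, and those of the other 4 subunits overlapped. Within ORC, ORC6 made up 13.9% ± 1.08 after knockdown and 18.9% ± 0.508 in controls, and ORC4 27.0% ± 1.04 against 23.2% ± 1.02, while the summed ORC level was 90.6 ± 1.92 against 90.5 ± 2.21 FPKM. Within GINS, the share of GINS4 was 12.6% ± 0.652 against 16.0% ± 0.665 and that of GINS2 45.3% ± 2.11 against 40.0% ± 0.402. For the RPA and RFC complexes the shares of every subunit overlapped between the groups.

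The nucleotide supply genes held the largest change of the 49. RRM2 (chromosome 2, 10120698 to 10131419, plus strand), the S-phase subunit of ribonucleotide reductase, which makes deoxynucleotides, stood at 46.7, 44.1 and 44.9 FPKM with the TDP-43 hairpin against 82.7, 82.2 and 83.7 FPKM with the control hairpin. The 2 groups were 35.5 FPKM apart at their nearest values, and RRM2 fell by 0.86 (standard error 0.0390, adjusted p = 1.97e-07) to 54.6% of the control mean. RRM1, the large catalytic subunit of the same enzyme, stood at 31.1, 31.1 and 30.9 FPKM with the TDP-43 hairpin against 43.9, 42.8 and 41.9 FPKM with the control hairpin and fell by 0.45 (adjusted p = 1.37e-05). RRM2 over RRM1 was 1.46 ± 0.0425 after knockdown and 1.93 ± 0.0569 in controls, with the groups apart. TYMS, the thymidylate synthase gene, was not called. It stood at 34.3, 34.5 and 31.5 FPKM with the TDP-43 hairpin against 30.0, 30.8 and 33.4 FPKM with the control hairpin, with overlapping groups (adjusted p = 0.200), and was called higher with quantile normalization (0.31, adjusted p = 0.00293). TYMS exons overlap those of ENOSF1 on the other strand by 967 bases, and RRM2 and TYMS have 3 and 2 pseudogenes named after them, whose reads could not be separated here. RRM2 exons also share 1077 bases with a second gene model on the same strand that is not in the table used here. Exons of other called genes overlap such models as well, POLA2 by 2012 bases and POLD1 by 426 on the same strand, and GINS4 by 1159, MCM2 by 1113, GINS3 by 558, LIG1 by 179 and RRM1 by 63 on the other strand. Levels of these genes are uncertain to that extent.

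Of the genes that act in DNA synthesis at the fork, 3 of 7 rose and 2 fell (median 0.14). These shares, 42.9% and 28.6%, compare with 30.5% and 35.9% of all genes. POLA1, the catalytic subunit of DNA polymerase alpha, stood at 14.1, 12.3 and 14.7 FPKM with the TDP-43 hairpin against 11.4, 11.2 and 11.3 FPKM with the control hairpin and rose (0.25, adjusted p = 0.0111). POLA2, the second subunit of the same polymerase, stood at 7.10, 7.93 and 7.89 FPKM with the TDP-43 hairpin against 8.61, 9.53 and 9.19 FPKM with the control hairpin and fell by 0.23 (adjusted p = 0.0150), a call lost without knockdown library 1 (adjusted p = 0.052) or control library 2 (adjusted p = 0.0642). POLD1, the catalytic subunit of polymerase delta, stood at 11.0, 12.2 and 10.1 FPKM with the TDP-43 hairpin against 8.80, 8.13 and 9.85 FPKM with the control hairpin (0.28, adjusted p = 0.0176) and lost its call without control library 1 (adjusted p = 0.0522) or control library 2 (adjusted p = 0.0700). FEN1, the flap nuclease that trims Okazaki fragments, stood at 35.0, 34.5 and 36.1 FPKM with the TDP-43 hairpin against 41.8, 40.7 and 42.9 FPKM with the control hairpin. It fell by 0.24 (adjusted p = 0.00101) on the deposited scale, but was at 0.0085 with quantile normalization. FEN1 exons overlap those of TMEM258 on the other strand by 166 bases, and FEN1 has 1 pseudogene named after it. TMEM258 had a mean of 266 FPKM over all libraries and was called higher (0.11).

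LIG1, the ligase that seals Okazaki fragments, was at 13.7 ± 0.582 against 11.8 ± 1.24 FPKM and was called higher (0.20, adjusted p = 0.0465). Leaving out control library 1 took its log2 fold change to 0.12 (adjusted p = 0.171), and leaving out knockdown library 2, knockdown library 3 or control library 3 also ended the call (adjusted p = 0.0853 to 0.111). PRIM1, the primase subunit that starts each fragment, at 21.2 ± 1.83 against 19.1 ± 1.55 FPKM, and POLE, the leading-strand polymerase, at 12.4 ± 0.625 against 11.9 ± 0.251 FPKM, did not pass (adjusted p = 0.134 and 0.424). PRIM1 was called higher without knockdown library 2 (0.21, adjusted p = 0.0277) and with quantile normalization (0.29, adjusted p = 0.00823).

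The clamp and its loader had no called rise and 2 falls among 6 genes (33.3%, near the 35.9% of all genes called lower). The median was -0.15, and all 6 lay below 0 on the deposited scale (PCNA, RFC1 and RFC4 lay above it with quantile normalization). RFC2 stood at 25.5, 29.3 and 26.8 FPKM with the TDP-43 hairpin against 33.3, 33.4 and 32.7 FPKM with the control hairpin and fell by 0.28 (adjusted p = 0.00225), but was at -0.070 with quantile normalization and was not called there. RFC3 stood at 26.2, 20.6 and 27.1 FPKM with the TDP-43 hairpin against 29.6, 30.8 and 28.9 FPKM with the control hairpin and fell by 0.27 (adjusted p = 0.0296), with knockdown library 2 well below the other two. Its call was lost when any 1 control library was left out (adjusted p = 0.054 to 0.0896) and with quantile normalization (-0.083, adjusted p = 0.431). Without knockdown library 2 its log2 fold change was -0.15. PCNA, the sliding clamp, stood at 63.8, 55.2 and 68.3 FPKM with the TDP-43 hairpin against 71.9, 64.8 and 66.8 FPKM with the control hairpin, where the groups overlapped and the test was not passed (adjusted p = 0.190). RFC1, RFC4 and RFC5 had log2 fold changes of -0.12, -0.11 and -0.18 (adjusted p = 0.0607, 0.0868 and 0.0654). Their groups did not overlap, as for 70.8% of all genes, but the nearest values were only 0.415, 0.198 and 0.0025 FPKM apart. RFC1 and RFC5 were called lower without knockdown library 1. With equal sums and the 6 small RNAs left out, RFC1, RFC4 and RFC5 were called lower too (adjusted p = 0.0206, 0.0391 and 0.0282), which made 5 of the 6 lower, while with quantile normalization 0 of the 6 were called. PCNA has 3 pseudogenes named after it and RFC3 and RFC5 have 1 each. RFC5 exons overlap those of WSB2 on the other strand by 186 bases, and WSB2 was called lower (-0.64).

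None of the 6 genes of single-strand DNA binding and fork protection was called (66.3% of all genes were), and in all 6 the groups overlapped. At an unadjusted limma p under 0.05 the count was also 0. RPA1, RPA2 and RPA3, the subunits of the protein that coats single-stranded DNA, stood at 19.7 ± 1.63 against 20.8 ± 0.751, 25.4 ± 2.68 against 25.7 ± 0.879 and 13.7 ± 1.95 against 15.2 ± 0.642 FPKM. TIMELESS and TIPIN, partners in fork protection, had log2 fold changes of 0.04 and -0.18, and MCM8, a helicase of recombination at damaged forks, of 0.03. TIPIN was called lower without control library 2 (adjusted p = 0.0110), and TIMELESS was called higher with quantile normalization (adjusted p = 0.0342). The standard errors of the 6 ran from 0.0588 to 0.0942, and a p that misses the threshold does not show that their levels were equal.

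Among the regulators of S-phase entry 2 of 5 rose and 1 fell (40% and 20%, against 30.5% and 35.9% of all genes, median 0.11). E2F2 (chromosome 1, 23506430 to 23531220, minus strand), an activator E2F and the lowest of the 49 genes in the controls, stood at 6.09, 5.27 and 5.77 FPKM with the TDP-43 hairpin against 3.65, 3.47 and 3.61 FPKM with the control hairpin. It had the largest rise of the 49 (0.55, standard error 0.0717, adjusted p = 1.65e-04), with the groups apart. E2F1, the related activator, stood at 14.7, 14.3 and 12.5 FPKM with the TDP-43 hairpin against 11.1, 11.5 and 11.1 FPKM with the control hairpin and rose (0.28, adjusted p = 0.00582). CCNE2, cyclin E2, stood at 5.94, 4.67 and 5.00 FPKM with the TDP-43 hairpin against 7.41, 8.27 and 7.66 FPKM with the control hairpin and fell by 0.51 (adjusted p = 8.89e-04). The other cyclin E gene, CCNE1, was at 6.36 ± 0.768 against 6.89 ± 0.917 FPKM with overlapping groups (adjusted p = 0.430). The ratio of CCNE2 to CCNE1 overlapped between the groups (0.831 ± 0.173 against 1.15 ± 0.233). CCNE2 exons overlap those of INTS8 on the other strand by 1629 bases, and INTS8 did not pass (log2 fold change 0.032). CDC25A, the phosphatase that activates CDK2, was at 9.92 ± 0.606 against 9.08 ± 0.113 FPKM (adjusted p = 0.125), its 3 knockdown values above all 3 controls, and was called higher with quantile normalization (0.21, adjusted p = 0.0114).

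**Figure D3:**
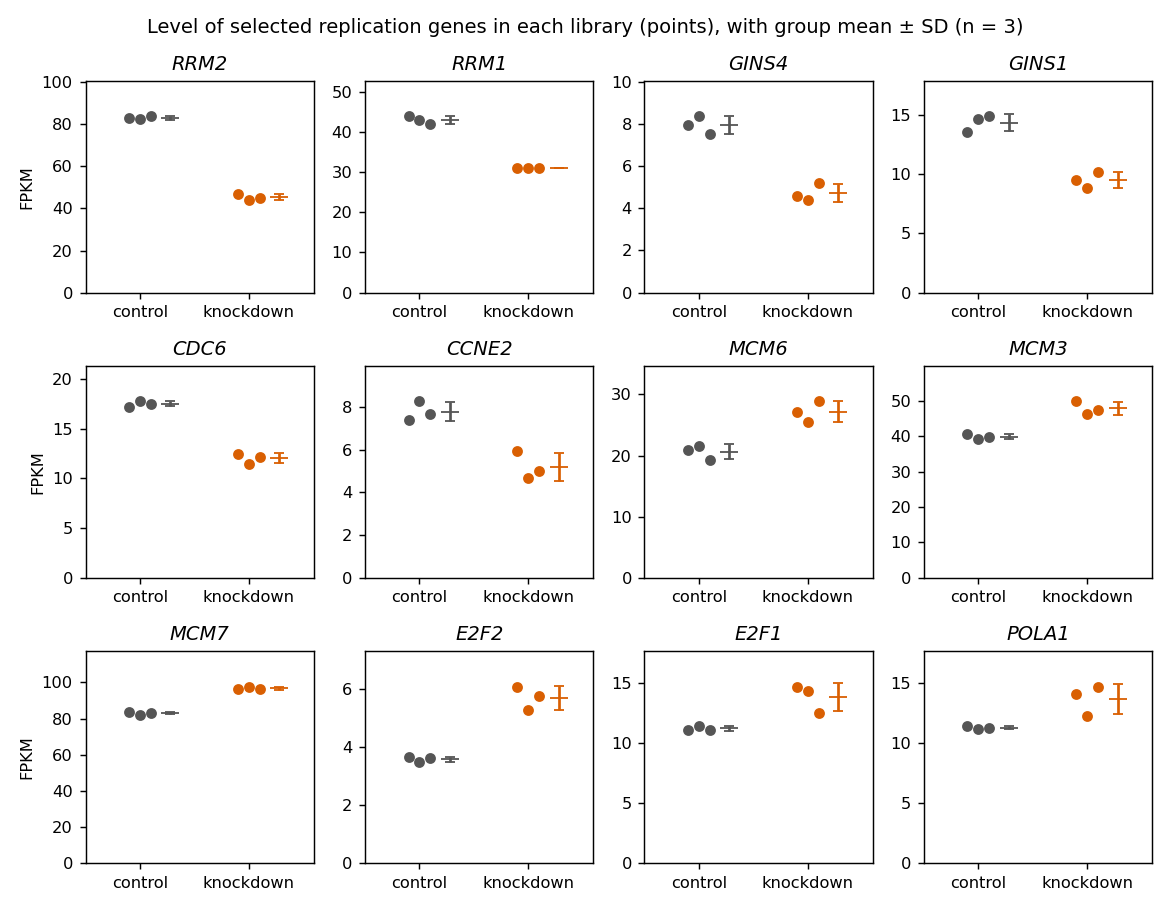
FPKM (y axis, from 0, scaled per gene) of 12 replication genes in the 3 control and 3 knockdown libraries (points), with the group mean and SD beside them. On the deposited scale RRM2, RRM1, GINS4, GINS1, CDC6 and CCNE2 lie lower in every knockdown library, and MCM6, MCM3, MCM7, E2F2, E2F1 and POLA1 lie higher (all 6 rises turn negative with equal sums).

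Other genes of the pathway were read from a list of 44. Of these 21 fell (47.7%, against 35.9% of all genes) and 3 rose (6.82%, against 30.5%), with a median of -0.20. With quantile normalization 11 fell and 8 rose. GMNN, geminin, the inhibitor of CDT1 that builds up after G1 phase, stood at 21.9, 23.7 and 21.3 FPKM with the TDP-43 hairpin against 46.4, 46.3 and 44.9 FPKM with the control hairpin, and GMNN over CDT1 was 2.74 ± 0.197 against 5.53 ± 0.483. TK1, thymidine kinase of the salvage pathway, stood at 11.1, 10.1 and 11.8 FPKM with the TDP-43 hairpin against 24.5, 24.8 and 27.9 FPKM with the control hairpin. ASF1B, a histone chaperone of dividing cells, stood at 5.04, 6.14 and 6.08 FPKM with the TDP-43 hairpin against 15.0, 13.8 and 14.0 FPKM with the control hairpin. All 3 fell at least 2-fold on the log2 scale, which no gene of the 49 did, and in each the groups lay apart. The 3 rises were CHTF18, a clamp loader subunit (0.34), and SUPT16H and SSRP1, the subunits of the FACT histone chaperone (0.25 and 0.11), and all 3 turned negative with equal sums. SSRP1 (adjusted p = 0.0283) lost its call when any 1 control library was left out (adjusted p = 0.0649 to 0.111). Its call was also lost without knockdown library 3 (adjusted p = 0.0860), with a replicate block (adjusted p = 0.0762) and in some other settings. CHTF18 lost its call with no filter on low values (adjusted p = 0.0706).

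Of 16 genes of the E2F, RB and DREAM regulators of this programme, 9 fell and 4 rose (median -0.22). These shares, 56.25% and 25%, compare with 35.9% and 30.5% of all genes. With quantile normalization 6 fell and 4 rose (median -0.071). E2F7, a repressor E2F that is itself an E2F target, stood at 2.22, 2.23 and 2.38 FPKM with the TDP-43 hairpin against 14.0, 13.3 and 13.6 FPKM with the control hairpin. It fell by 2.16 (adjusted p = 1.03e-08), and E2F1 over E2F7 was 6.11 ± 0.745 after knockdown and 0.825 ± 0.0358 in controls. RB1, the retinoblastoma protein gene, stood at 21.6, 17.3 and 21.7 FPKM with the TDP-43 hairpin against 31.1, 30.5 and 29.3 FPKM with the control hairpin (log2 fold change -0.57, adjusted p = 3.46e-04). LIN54, a DREAM subunit that binds the CHR element, stood at 6.10, 4.80 and 5.89 FPKM with the TDP-43 hairpin against 7.63, 7.83 and 7.16 FPKM with the control hairpin (-0.38, adjusted p = 0.00454). TFDP2, an E2F partner, stood at 16.6, 16.5 and 17.3 FPKM with the TDP-43 hairpin against 9.12, 9.50 and 9.48 FPKM with the control hairpin and rose (0.78, adjusted p = 1.85e-06). E2F4, a member of DREAM, and LIN52 rose by 0.41 and 0.29. These 3 rises also turned negative with equal sums.

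The list of mitotic genes holds mostly, but not only, genes that act after replication in the cycle. Of 40 tested 37 fell (92.5%, against 35.9% of all genes) and 0 rose, with a median of -0.64. At least 2-fold changes were called for 8 (20%, against 11.3% of all genes). With quantile normalization 3 of the 40 were called higher. Across the 18 alternatives 32 to 40 were called lower, and the list median was -0.48 or below. ANLN, a scaffold of cytokinesis, stood at 20.2, 17.0 and 19.8 FPKM with the TDP-43 hairpin against 64.2, 65.1 and 61.2 FPKM with the control hairpin. CCNA2, cyclin A2, stood at 14.1, 14.3 and 14.9 FPKM with the TDP-43 hairpin against 40.0, 41.4 and 39.4 FPKM with the control hairpin. ECT2, a driver of cytokinesis, stood at 21.7, 18.4 and 21.6 FPKM with the TDP-43 hairpin against 51.8, 51.6 and 50.6 FPKM with the control hairpin. In all 3 every knockdown value was less than 50% of every control value. Summed over the list the mitotic genes stood at 895 to 958 FPKM against 1468 to 1497 FPKM in control libraries. In these bulk libraries fewer cells in a phase of the cycle and less RNA per cell cannot be told apart.

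**Figure D4:**
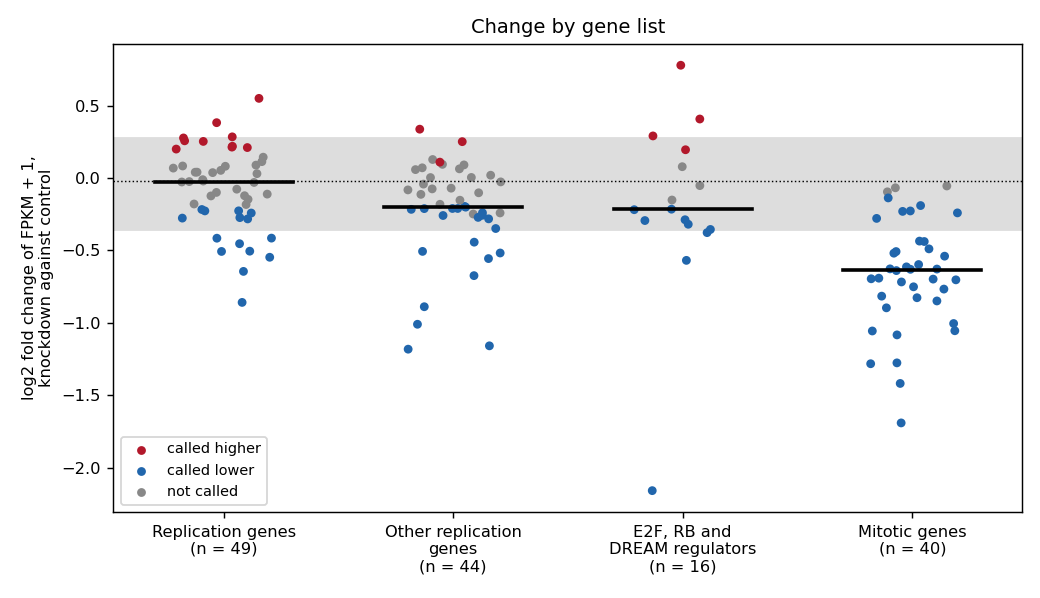
Log2 fold change of FPKM + 1 (y axis) for the 49 replication genes, 44 other replication genes, 16 E2F, RB and DREAM regulators and 40 mitotic genes, with 1 point per gene coloured by call and a bar at the median of each list. The grey band spans the lower and upper quartile of all 13434 genes (-0.36 to 0.27) and the dotted line is their median. The medians run from -0.027 for the replication genes to -0.64 for the mitotic genes.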

How the data were processed

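Poly(A) RNA libraries of SH-SY5Y cells (3 with a TDP-43 hairpin, 3 with a control hairpin) were prepared, per the labels' protocols, with a kit that marks strand. The authors deposited 1 table of FPKM values per gene. The submitters' processing notes name TopHat2 2.1.0, SAMtools, Cuffdiff 2.2.1 and hg38. Which annotation was counted, and whether strand was used, is not given in these sources. No read counts were used, so the absolute depth is unknown, and only relative depth was read from the steps between values under 0.3 FPKM.

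Values were transformed as log2(FPKM + 1), genes with a mean under 1 FPKM were left out, and limma 3.58.1 in R 4.3.3 (trend, no block) was fitted to all 13434 genes left, with Benjamini-Hochberg adjustment over all of them and a threshold of 0.05. The fit was tested on simulated data with known changes on the log2(FPKM + 1) scale. It recovered 52% of changes of 1.25-fold, 86% of 1.5-fold and 100% of 2-fold, with 7 false calls among 176. Small changes can thus be missed. Far fewer genes were called in the simulation than in the data (8909), so these shares need not hold for the data. Promoters were taken from RefSeq (GRCh38.p14), and gene positions and exon overlaps from GENCODE on GRCh38. PCLAF and KNL1 were read under their older symbols KIAA0101 and CASC5. Values are given in every library for TARDBP and, in each role, for up to 4 called genes with the largest absolute change. Of the other lists up to 3 called genes in each direction are named. The members and lists were chosen with earlier results of these data known. PCNA and TYMS are also given by library, outside that rule and after their values were seen. The 18 alternatives changed the pseudocount, filter, scaling, variance model, block or libraries.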

Additional observations from a re-analysis of the deposited data

How the results depend on the processing

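Scaling of the libraries moved the results most. Of the 25 called replication genes, 17 held their call under every alternative in which they were tested except equal sums, and GINS2, GINS3, POLA2, POLD1, FEN1, LIG1, RFC2 and RFC3 lost it under at least 1 other. With quantile normalization 19 were called higher and 9 lower, the median of the 49 was 0.0747 and that of all genes 0.0908, the licensing median was 0.0679, and the log2 fold change turned positive for ORC1 (0.0316), ORC3 (0.0747), CDT1 (0.0611), MCM10 (0.105), FEN1 (0.0085), PCNA (0.1414), RFC1 (0.0077), RFC4 (0.0524), RPA1 (0.0603) and RPA2 (0.1585). Of the calls over all genes, 45.9% were higher on the deposited scale, 58.8% with quantile normalization and 4.27% with equal sums. With equal sums 0 were called higher and 48 lower, the median of the 49 was -0.8733, and the medians of MCM2-7 (-0.6641), fork synthesis (-0.7163) and S-phase entry (-0.703) turned negative. So did ORC2 (-0.8138), ORC4 (-0.6512), ORC5 (-0.7648), MCM2 (-0.6542), MCM3 (-0.626), MCM4 (-0.8373), MCM5 (-0.7792), MCM6 (-0.4842), MCM7 (-0.674), MCM8 (-0.8215), CDC7 (-0.7559), POLA1 (-0.583), POLD1 (-0.5349), POLE (-0.7808), PRIM1 (-0.7163), LIG1 (-0.6365), TIMELESS (-0.8099), TYMS (-0.7867), CDC25A (-0.703), E2F1 (-0.5585), E2F2 (-0.1885), CHTF18 (-0.4234), SSRP1 (-0.7832), SUPT16H (-0.641), TFDP2 (-0.0567), E2F4 (-0.462) and LIN52 (-0.5178). With equal sums and 6 abundant small RNAs left out the median of the 49 was -0.0539. Leaving out 1 library at a time gave 8 to 10 called higher, 12 to 16 called lower and a median of -0.0663 (without knockdown library 1) to -0.0244. It turned the sign of ORC1 (-0.0972 to 0.0393), ORC3 (-0.0965 to 0.0716), CDT1 (-0.1192 to 0.038), MCM10 (-0.0369 to 0.0143), RPA2 (-0.0927 to 0.0539), MCM8 (-0.0304 to 0.0633) and the licensing median (-0.0293 to 0.0215), none of which was called. The median of the single-strand DNA binding and fork protection genes (-0.0488) also turned positive. It was 0.0199 without knockdown library 2 and 0.1072 with quantile normalization. Beyond the scaling itself the cause of these changes was not tested.

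Same-numbered libraries did not deviate together (correlations of -0.0185, -0.185 and -0.0911), and no library correlated best with its own number. The numbers were therefore not taken as pairs. With a replicate block 10 of the 49 were called higher and 14 lower, GINS2 being the call lost. In a balanced design the block cannot move a fold change, so only the calls bear on it.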
